A study of Sus scrofa with 4 samples.

Results

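Granulosa and theca cells are the somatic cells of the ovarian follicle, and 10 genes that serve as markers of their identity were followed here in whole pig (Sus scrofa) ovary. The rows were taken from the deposited gene table by exact symbol: FOXL2, WT1, GATA4, GATA6, GATM, SERPINE2, GJA1 and CDH2 for the granulosa side, and INSL3 and TCF21 for the theca side. All 10 had 1 row each among the 22309 rows of the table, and all 10 passed the filter on low counts that left 13937 genes. The ovaries, all in diestrus, came from wild type (WT) sows, 2 samples, and from leptin overexpression sows, 2 samples. The leptin sows descended from a re-cloned leptin-transgenic pig (C013) whose male clones were bred to Duroc/Landrace/Yorkshire (DLY) females, with carriers taken from the F2 generation. The line goes back to 1 pig. Neither the transgene promoter nor the age of the sows is stated in the labels, which also do not say whether the samples of a group are separate animals.

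In the follicle, granulosa cells line the inside and nurse the oocyte, while theca cells form the outer sheath. FOXL2, a forkhead factor, keeps granulosa cells from taking on the character of testicular Sertoli cells. WT1, GATA4 and GATA6 are transcription factors of the early gonad that stay on in somatic cells of the adult ovary. GATM makes the precursor of creatine, SERPINE2 is a secreted inhibitor of serine proteases, GJA1 (connexin 43) forms the gap junctions between granulosa cells, and CDH2 (N-cadherin) holds these cells to each other. INSL3 is a peptide hormone of the relaxin family made by theca cells, and TCF21 is a basic helix-loop-helix factor of mesenchymal cells. After ovulation the follicle wall turns into the corpus luteum, so an ovary in diestrus holds luteal tissue beside follicles. Several of these genes are also active elsewhere in the ovary: WT1 and GATA4 in the surface epithelium, GJA1 and GATA6 in several cell types, and TCF21 in stromal fibroblasts.

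Library totals lay between 16493113 and 16797511 counts, but composition differed. The TMM scaling factors, which correct for composition, were 1.34 for WT replicate 1 and 0.998 for WT replicate 2, then 0.925 and 0.809 for the same numbers of leptin overexpression, and mitochondrially encoded genes held 6.89%, 12.9%, 15.1% and 16.4% of counts. Unless another unit is named, levels below are CPM, counts scaled to library size after TMM correction, always in the order WT replicate 1, WT replicate 2, leptin overexpression replicate 1, leptin overexpression replicate 2. WT replicate 1 stood apart: its summed level of 13 oocyte genes was 154 CPM against 22.3 to 26.1 in the other libraries, and its summed level of 13 luteal genes was 24995 against 52289 to 55901. LEP, the overexpressed gene, had 0, 3, 55 and 124 counts.

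None of the 10 genes passed the test between the genotypes. The comparison was made with edgeR's quasi-likelihood test over all 13937 genes, with adjusted p under 0.05 as the threshold, and it called 0.0287% of genes higher and 0% lower. Log2 fold changes below are leptin overexpression minus WT, each with its standard error (SE). LEP itself did not pass, with a log2 fold change of 6.18 (SE 1.19, edgeR adjusted p = 0.198). The lack of a call therefore does not show the lack of a difference. The adjusted p of the 10 genes ran from 0.41 for WT1 to 1.00 for GJA1. At an unadjusted p under 0.05, 1 of the 10, WT1, was lower and 0 were higher, where 5.32% of all tested genes were lower and 4.04% higher. The median log2 fold change was -0.15 over the 10 genes, -0.036 over the 8 granulosa genes, -0.33 over the theca pair and -0.012 over all tested genes.

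Both libraries of one genotype lay beyond both of the other for 4 of the 10 genes: SERPINE2, GATA6 and CDH2 were higher in leptin overexpression and WT1 was lower. The same held for 22.2% of all tested genes on the higher side and 22.9% on the lower side, so 3 and 1 of 10 are near what the whole table shows. With 2 libraries against 2, an exact permutation test of any single gene cannot give a two-sided p below 0.333.

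**Figure D1:**
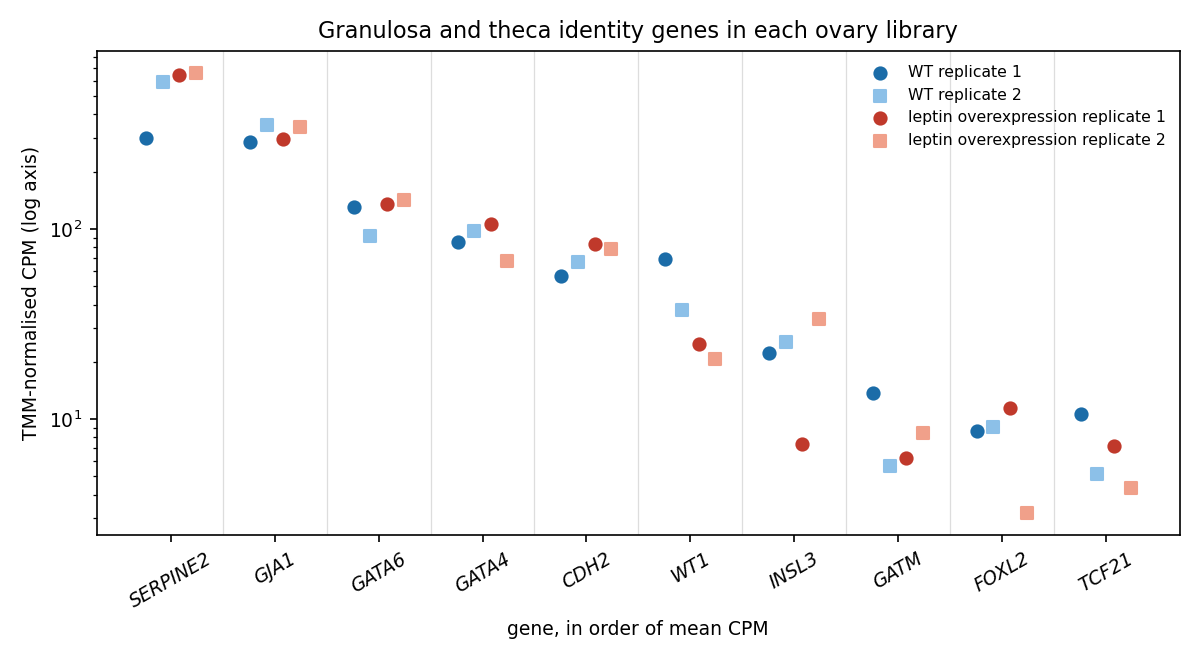
TMM-normalised CPM (log axis) of the 10 genes in each library, ordered by mean CPM, with 1 point per library. WT1 is higher in both WT libraries, the low point of FOXL2 is leptin overexpression replicate 2, and the low point of INSL3 is leptin overexpression replicate 1.

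Levels were compared between genes only as FPKM, the deposited values per transcript length. SERPINE2 was the highest of the 10, with 231 to 323 FPKM over the 4 libraries, and GJA1 came next with 83.2 to 114. These ranges did not touch each other or that of GATA6, which followed with 28.9 to 55.0. From GATA6 down, each range overlapped that of the next gene: INSL3 had 7.68 to 33.6, CDH2 15.3 to 18.7, WT1 6.43 to 36.1, GATA4 8.5 to 17.7, FOXL2 3.19 to 14.2, TCF21 1.93 to 7.84 and GATM 1.29 to 4.16 FPKM. The mean FPKM of SERPINE2 exceeded that of 98.8% of the 17903 rows with any count, and that of GATM exceeded 43% of them. As a ratio of highest to lowest FPKM, CDH2 had the narrowest span of the 10 and WT1, INSL3 and FOXL2 the widest.

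FOXL2 (ENSSSCG00000028562) differed more within leptin overexpression than between the genotypes. Its levels were 8.62, 9.07, 11.4 and 3.21 CPM. The low value came from 43 counts, with an exact Poisson 95% interval of 2.32 to 4.33 CPM, and the intervals of the other libraries began at 7.44 CPM or higher; such intervals cover counting error only. The log2 fold change was -0.27 (SE 0.62, edgeR adjusted p = 0.888). It was 0.38 without leptin overexpression replicate 2 and -1.44 without leptin overexpression replicate 1, so the direction hung on that library. Of 23 rows of other granulosa genes, 5 shared the highest and the lowest library of FOXL2. Among these 5 were NR5A1, a nuclear receptor of steroid-making cells, at 42.8, 63.9, 79.3 and 36.2 CPM, and INHBB, an inhibin and activin subunit, at 22.05, 70.6, 105 and 12.6. HSD17B1, which completes oestradiol, was at 87.5, 156, 260 and 84.2 CPM. Other rows of the list went differently: KITLG, the kit ligand, was highest in leptin overexpression replicate 2, at 18.4, 16.53, 21.2 and 33.9 CPM, and INHA, the inhibin alpha subunit, was highest in WT replicate 1, at 565, 299.7, 253 and 137.

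Genes that act with or against FOXL2 and WT1 in deciding ovary or testis fate gave no call. Of 15 listed, 14 had a row and 10 were tested, 6 with higher and 4 with lower values, and a median log2 fold change of 0.059. RSPO1, given below, and PTGDS had the lowest p of the list, both with lower values. PTGDS was at 31.7, 17.3, 10.1 and 5.23 CPM (log2 fold change -1.68, SE 0.50, edgeR adjusted p = 0.34). CTNNB1, the beta-catenin that carries Wnt signals, was at 469, 386, 464 and 488 CPM, and SOX4 at 64.0, 43.3, 54.7 and 72.3. SOX9, the Sertoli cell factor that FOXL2 opposes, was low, at 3.08, 1.49, 0.914 and 2.47 CPM (edgeR adjusted p = 0.866), and DMRT1, another testis factor, had 8, 0, 1 and 0 counts. Leptin overexpression replicate 1 had the highest FOXL2 and the lowest SOX9, the latter from 14 counts, while leptin overexpression replicate 2, the low point of FOXL2, had a SOX9 level between those of the WT libraries.

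WT1 (ENSSSCG00000013316) had the lowest p of the 10 genes. Its levels were 69.3 and 37.2 CPM in the WT libraries against 24.8 and 20.8 in the transgenic ones. The WT libraries differed by 1.86 times from each other, the leptin overexpression libraries by 1.19 times, and the groups did not overlap. The log2 fold change was -1.23 (SE 0.42, edgeR adjusted p = 0.41), rank 574 by p among the 13937 genes. As the groups did not overlap, leaving out 1 library could hardly reverse this difference. Its direction held under all 14 alternatives, from -0.73 without WT replicate 1 to -1.71 with library totals as the only scaling. WT1 passed the threshold under 3 of them: library totals alone (edgeR adjusted p = 0.0222), which called 3.43% of all genes lower, and limma-trend on log2(FPKM + 1) or log2(FPKM + 0.1) (adjusted p = 0.0425 and 0.0401), which called 2.68% and 2.86% lower. Over all 14 the adjusted p of WT1 ran from 0.0222 to 1.00. Those settings also moved the median of all genes to -0.43, -0.30 and -0.40, so relative to the median the difference of WT1 was of like size in each.

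A comparison within libraries does not depend on scaling. Against the mean log2 CPM of the 7 other granulosa genes, WT1 was at 0.039 and -0.86 in the WT libraries against -1.64 and -1.64 in the transgenic ones. WT1 was thus lower relative to that mean in both leptin overexpression libraries. This is no independent support, as WT1 was singled out by these same values. In addition, 3 of the 7 other genes, SERPINE2, GATA6 and CDH2, were higher in leptin overexpression without overlap. Its FPKM ratio to GATA4 was 2.04 and 0.961 in the WT libraries against 0.613 and 0.756 in the transgenic ones. Its ratio to FOXL2 overlapped between the groups, at 2.55, 1.29, 0.713 and 2.02.

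Most, but not all, tested markers of ovarian surface epithelium and mesothelium, cells that also contain WT1, had lower values in the same libraries. Of 13 such markers 8 had a row and were tested. Lower values were found for 6 of the 8, 5 of them without overlap, where 22.9% of all tested genes were lower without overlap. Of these markers 0 passed the threshold, and the median log2 fold change was -2.04. Their summed level was 204 and 118 CPM in the WT libraries against 26.8 and 92.3 in the transgenic ones. EPCAM alone made up 57.1 CPM of that last sum. The 2 markers with higher fitted values were EPCAM, at 33.8, 7.76, 2.55 and 57.1 CPM, and BNC1, at 1.41, 0, 0.196 and 1.57. UPK1B had a lower fitted value with overlapping groups, at 4.36, 5.25, 2.42 and 4.48 CPM. KRT8, a keratin of simple epithelia, was at 55.2, 36.1, 2.94 and 5.15 CPM (edgeR adjusted p = 0.0921), and KRT7 at 31.0, 24.4, 17.9 and 19.3. RSPO1, a Wnt amplifier of the gonad, had 31 and 11 counts in the WT libraries against 0 and 0 in the transgenic ones (edgeR adjusted p = 0.279). Oviduct epithelium markers summed to 556, 261, 45.1 and 35.7 CPM, with 11 of 11 tested genes lower and 0 called. PAX2, with 1, 0, 0 and 0 counts, was nearly absent from both genotypes and did not pass the filter on low counts. Lower values were not limited to epithelium. They were found for 11 of 12 tested smooth muscle and pericyte genes (median log2 fold change -0.99) and 10 of 12 immune genes (-0.90). The same held for 7 of 7 oocyte genes (-2.43) and 11 of 14 endothelial genes (-0.46). Lower without overlap were 9 of the smooth muscle and pericyte genes, 7 immune, 3 oocyte and 2 endothelial genes. The oocyte sum was high in WT replicate 1 alone, at 154, 25.1, 22.3 and 26.1 CPM. Endothelial sums overlapped between the genotypes, at 989, 1721, 1215 and 633 CPM. Higher values were found for 9 of 12 luteal and 8 of 14 stromal genes, where 6870 of all 13937 tested genes had higher values. Without overlap, 1 luteal and 3 stromal genes were higher, where 22.2% of all tested genes were. The luteal sum was 24995, 55901, 52289 and 54887 CPM, so WT replicate 1 was low and WT replicate 2 the highest. In all of these lists 0 genes were called. The part of surface or oviduct epithelium, or of any other cell type, in the WT1 difference was not tested. In whole tissue, fewer cells of a type and less RNA per cell cannot be told apart.

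**Figure D2:**
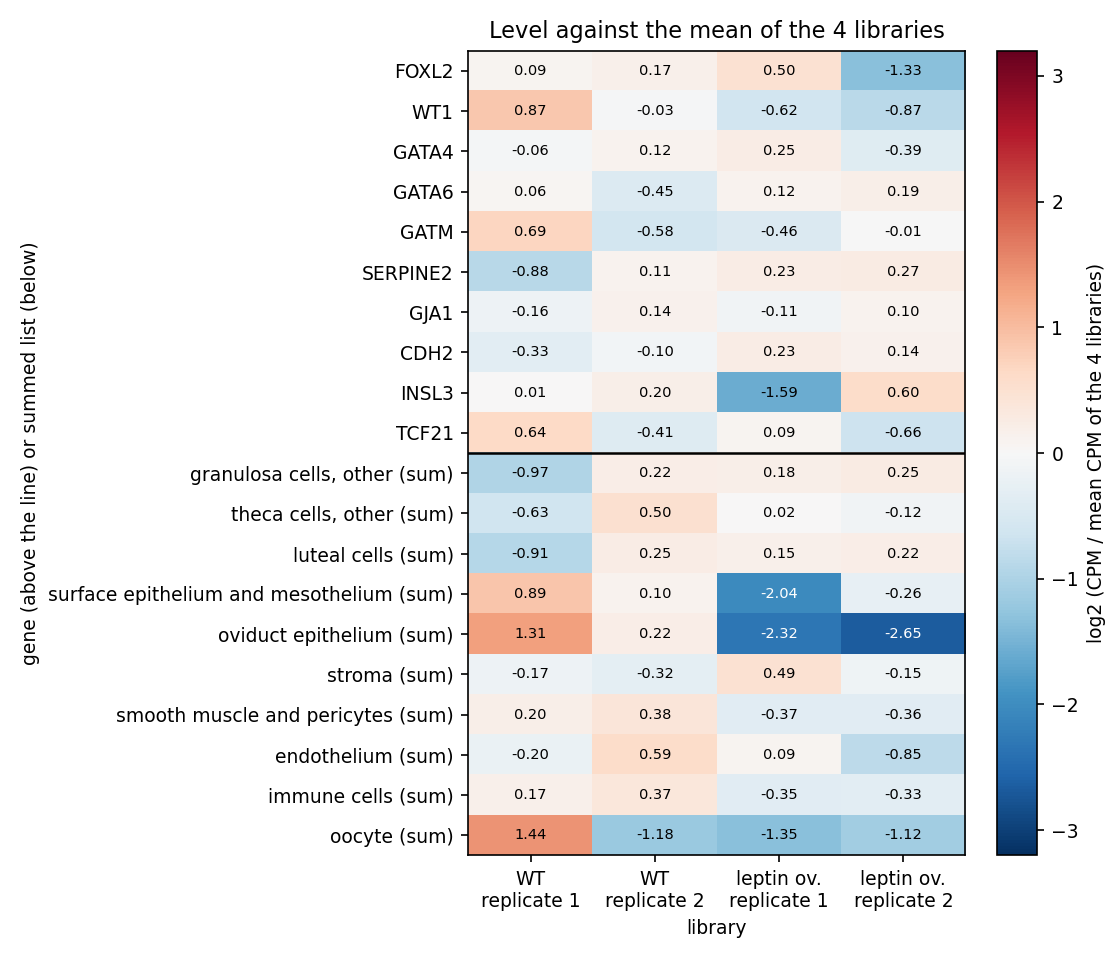
Log2 of CPM over the mean CPM of the 4 libraries, for each of the 10 genes (above the line) and for the summed CPM of marker lists (below). WT1 goes from 0.87 in WT replicate 1 to -0.87 in leptin overexpression replicate 2, and the oviduct epithelium sum from 1.31 to -2.65 in the same libraries; the low granulosa sum of WT replicate 1 rests on 1 row of GSTA1.

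GATA4 (ENSSSCG00000022383) and GATA6 (ENSSSCG00000003702) bind the same DNA motif and both act on steroidogenic genes. GATA4 was at 85.4, 97.0, 106 and 67.9 CPM, with overlapping groups and a log2 fold change of -0.071 (SE 0.38, edgeR adjusted p = 0.956). GATA6 was at 130, 91.4, 136 and 142 CPM, and both leptin overexpression libraries lay above WT, by a small margin over WT replicate 1. Its log2 fold change was 0.33 (SE 0.38, adjusted p = 0.774), and it became -0.14 with library totals alone. Per length GATA6 exceeded GATA4 in each of the 4 libraries, by 3.11, 1.93, 2.64 and 4.28 times, with no separation of the genotypes. The highest ratio, in leptin overexpression replicate 2, coincided with the lowest GATA4 and the lowest FOXL2.

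Cofactors and relatives of the GATA pair gave 5 tested genes of 9, 1 with a higher and 4 with lower values, 0 called. EP300, the histone acetyltransferase that works with GATA factors, was at 88.6, 70.8, 51.5 and 19.5 CPM (log2 fold change -1.17, SE 0.48, edgeR adjusted p = 0.519). ZFPM1 and ZFPM2, the FOG cofactors that bind GATA zinc fingers, were at 13.2, 13.9, 18.7 and 6.87 CPM and at 12.4, 10.1, 9.92 and 7.02 CPM. GATA2, a relative known from endothelium and blood, was at 5.81, 9.13, 7.44 and 2.32 CPM. Leptin overexpression replicate 2 was the lowest library for all 4 of these genes, as for GATA4 and FOXL2. This was not particular to them: it was also lowest for WT1, TCF21, LRP1, GJA5, CTNNA1 and CDH5 of other lists. CDH11 and PANX1 were instead highest in that library.

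SERPINE2 (ENSSSCG00000016233) was low in 1 library. Its levels were 300.2, 594, 647 and 663 CPM, with WT replicate 1 apart and WT replicate 2 close to both leptin overexpression libraries. The log2 fold change was 0.55 (SE 0.49, edgeR adjusted p = 0.705), 0.12 without WT replicate 1 and 1.10 without WT replicate 2. As FPKM the groups overlapped, with 231 and 323 in the WT libraries against 298 and 266 in the transgenic ones. WT replicate 1 was also the lowest library for 10 of 13 luteal genes. The summed levels of 23 rows of other granulosa genes were 2540, 5800, 5663 and 5946 CPM, but 1 row of GSTA1, a glutathione transferase, carried that gap, with 13.8, 3218, 2642 and 2560 CPM. Without it the sums were 2526, 2582, 3021 and 3386, with both WT libraries close to each other. GSTA1 belongs to a family of near-identical copies and had 3 rows in the table, so its split between them is uncertain. The share of luteal tissue in the SERPINE2 values was not tested.

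The proteases that SERPINE2 inhibits and its relatives gave 12 matched genes, of which 8 were tested, 3 with higher and 5 with lower values, 0 called. PLAT, the tissue-type plasminogen activator, was at 147, 1074, 479 and 195 CPM. PLAU, the urokinase-type activator, was at 51.8, 53.0, 47.0 and 46.3, and LRP1, the receptor that clears protease-serpin complexes, at 514, 669, 525 and 249.

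GJA1 (ENSSSCG00000004241) had the smallest fitted difference of the 10. Its levels were 286, 353, 296 and 342 CPM, with overlapping groups, and its log2 fold change was -2.35e-04 (SE 0.42, edgeR adjusted p = 1.00). The SE leaves room for differences in either direction. The scale mattered: as FPKM it was at 114 and 107 in the WT libraries against 83.2 and 84.9 in the transgenic ones, without overlap, where 39.7% of tested genes were lower without overlap in FPKM, and its log2 fold change with library totals alone was -0.42, close to the median of all genes in that setting. GJA1 made up 66.8%, 62.9%, 62.5% and 77.2% of the summed FPKM of the connexins with a row. GJA5, an arterial connexin, was at 70.7, 70.7, 66.2 and 39.7 CPM, GJC1 at 25.3, 27.0, 42.8 and 22.3, and the scaffold TJP1, which binds the tail of GJA1, at 119, 123, 116 and 89.9. PANX1, a channel protein related in shape but not forming gap junctions, was at 15.7, 17.4, 37.9 and 45.04 CPM (log2 fold change 1.32, SE 0.37, edgeR adjusted p = 0.294). Of 21 listed genes, 19 matched and 12 were tested, 4 with higher and 8 with lower values and 0 called, and GJA3, GJB5 and GJB6 had 0 counts in each of the 4 libraries.

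CDH2 (ENSSSCG00000003722) varied little within groups, by 1.17 times in WT and 1.07 times in leptin overexpression, with 56.8 and 66.7 CPM in the WT libraries against 83.7 and 78.6 in the transgenic ones. The groups did not overlap, and the log2 fold change was 0.39 (SE 0.35, edgeR adjusted p = 0.702). Leaving out any 1 library kept it between 0.26 and 0.49, but library totals alone gave -0.017 and limma-trend on log2(FPKM + 1) -0.018, and the FPKM of the groups overlapped at 18.3, 16.1, 18.7 and 15.3. CDH1, the E-cadherin of epithelia, had lower values in leptin overexpression, with 63.2 and 31.1 CPM in the WT libraries against 0.457 and 3.51 in the transgenic ones (log2 fold change -4.58, SE 0.89, edgeR adjusted p = 0.218). The FPKM ratio of CDH2 to CDH1 was 1.33 and 3.14 in the WT libraries against 267 and 33.3 in the transgenic ones, the first of the latter pair resting on 7 counts of CDH1. CDH11, a mesenchymal cadherin, was at 68.3, 85.0, 109 and 149 CPM, and CDH5, of endothelium, at 134, 194, 122 and 50.1. Of the 15 listed cadherins and catenins 14 were tested, 3 with higher and 11 with lower values and 0 called. Among the catenins, CTNNA1, an alpha-catenin that links cadherins to actin, was at 279, 254, 274 and 207 CPM. CTNND1 (p120-catenin), which binds cadherins near the membrane and keeps them at the surface, was at 189, 222, 190 and 118, and CTNNA2, another alpha-catenin, was at 30.4, 62.1, 108 and 122 (edgeR adjusted p = 0.38).

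**Figure D3:**
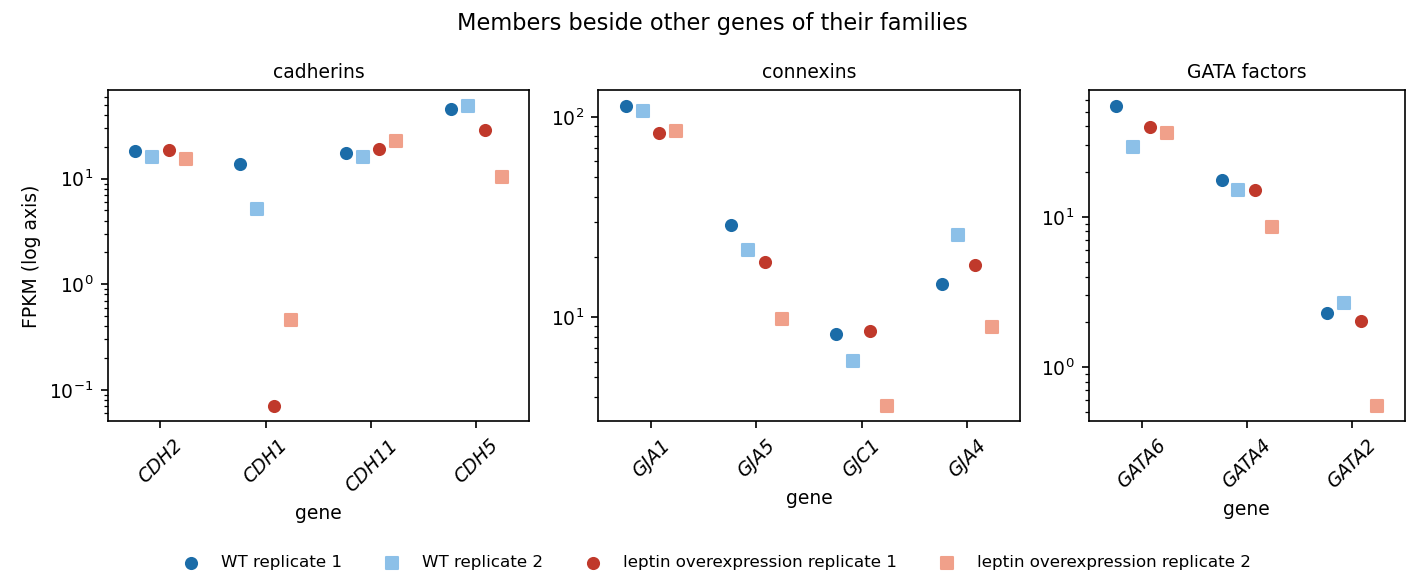
FPKM (log axes) of CDH2, GJA1, GATA6 and GATA4 beside other genes of their families, with 1 point per library. CDH2 stays between 15.3 and 18.7 while CDH1 is at 5.11 or more in WT and at 0.46 or less in leptin overexpression.

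GATM (ENSSSCG00000004672) was the lowest of the 10 per length and was high in 1 library. Its levels were 13.7, 5.67, 6.20 and 8.44 CPM, from 302, 95, 95 and 113 counts. The WT libraries differed by 2.42 times, and both leptin overexpression libraries lay between them. The log2 fold change was -0.41 (SE 0.55, edgeR adjusted p = 0.81) and was 0.34 without WT replicate 1. GAMT, which turns the product of GATM into creatine, was at 12.2, 14.7, 18.7 and 14.9 CPM. SLC6A8, the creatine transporter, was at 158, 69.2, 64.2 and 33.7 CPM (log2 fold change -1.22, SE 0.50, edgeR adjusted p = 0.519), with its highest level in WT replicate 1, where GATM was also highest. CKB, the brain-type creatine kinase, was at 33.1, 56.2, 50.3 and 14.2. Of the 10 listed genes of creatine synthesis, uptake and use, 9 matched and 7 were tested, 4 with higher and 3 with lower values and 0 called.

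INSL3 (ENSSSCG00000013887), the theca hormone, differed mainly between the leptin overexpression libraries. Its levels were 22.3 and 25.4 CPM in the WT libraries against 7.38 and 33.5 in the transgenic ones, a 4.55-fold gap within that group. The low value rested on 113 counts, with an exact Poisson 95% interval of 6.08 to 8.87 CPM, and the intervals of the other libraries began at 20.4 CPM or higher. The log2 fold change was -0.22 (SE 0.64, edgeR adjusted p = 0.916), with -1.68 without leptin overexpression replicate 2 and 0.51 without leptin overexpression replicate 1. CYP17A1, the androgen-forming enzyme of theca cells, did not follow INSL3 by library, at 157, 1700.5, 836 and 337 CPM. LHCGR, the luteinising hormone receptor, was at 32.6, 31.6, 24.2 and 44.0 CPM and ALDH1A1, a retinoic acid enzyme, at 35.6, 35.3, 6.07 and 45.3, both with the same lowest and highest library as INSL3. HHIP, at 2.50, 2.45, 2.02 and 5.08 CPM, shared both too. The rest of the 15 other theca genes did not, so this order was not a trait of the theca list.

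The other side of the INSL3 system was thinly covered. RXFP2, the INSL3 receptor, had 12 and 9 counts in the WT libraries against 1 and 1 in the transgenic ones and did not pass the filter on low counts. RLN2, the relaxin row of the table and a luteal hormone in the pig, ranged widely, at 68.2, 4503, 1165 and 344 CPM (log2 fold change -1.60, SE 1.75, edgeR adjusted p = 0.77). INSL3 and RLN2 had their lowest values in different libraries. Of 10 listed genes of the family 7 matched and 2 were tested, both with lower values and 0 called.

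TCF21 (ENSSSCG00000033258) was at 10.6, 5.13, 7.25 and 4.33 CPM, from 234, 86, 111 and 58 counts. The groups overlapped, the WT libraries differed by 2.07 times, and the log2 fold change was -0.44 (SE 0.57, edgeR adjusted p = 0.797), or 0.16 without WT replicate 1. TCF12 and TCF3, E proteins that pair with TCF21, were at 65.0, 51.4, 59.0 and 74.2 CPM and at 29.2, 27.5, 28.01 and 20.02. Their inhibitors ID1 and ID3 were at 43.3, 67.8, 49.6 and 49.7 and at 34.3, 76.0, 51.4 and 44.7. Of 9 tested genes of this list, 2 had higher and 7 lower values and 0 were called. Stromal fibroblast genes, which overlap with TCF21 in cell type, had a median log2 fold change of 0.029 over 14 tested genes, TCF21 among them, 8 with higher values; DCN, a matrix proteoglycan, was at 431, 263, 299 and 273 CPM and PDGFRA, a fibroblast receptor, at 186, 144, 210 and 217.

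**Figure D4:**
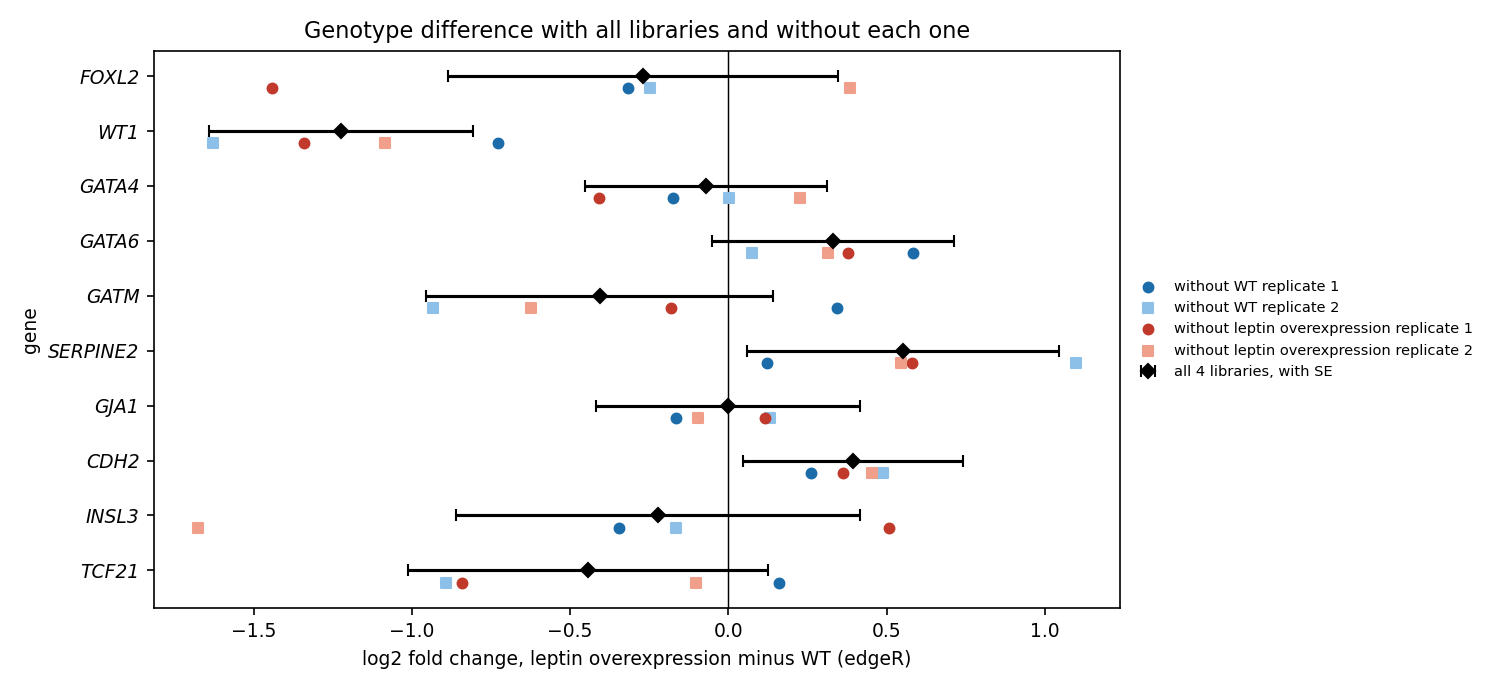
Log2 fold change (leptin overexpression minus WT, edgeR) of the 10 genes with all 4 libraries and its SE (diamonds and bars), and without each library in turn (coloured points). WT1 stays below 0 and SERPINE2, GATA6 and CDH2 above 0 without any 1 library, while FOXL2, GATA4, GATM, GJA1, INSL3 and TCF21 fall on both sides of 0. The groups do not overlap for WT1, SERPINE2, GATA6 and CDH2, so leaving out 1 library can hardly change their sign.

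No gene of the wider granulosa and theca lists was called either. Of 21 tested rows of other granulosa genes 15 had higher and 6 lower values (median log2 fold change 0.35, 0 called), against 3 higher and 5 lower of the 8 granulosa genes above, and of 15 other theca genes 6 had higher and 9 lower values (median -0.33, 0 called). Anti-Müllerian hormone, AMH, a product of growing follicles, was at 29.3, 24.8, 34.9 and 24.4 CPM, with overlapping groups. CYP19A1, the granulosa aromatase, was at 9.21 CPM in WT replicate 1 and 161 to 197 in the other libraries, so its low library was not the low library of FOXL2. NR2F2, a theca and stromal nuclear receptor, was at 57.8, 51.9, 54.7 and 43.3 CPM. ANPEP, a surface peptidase of theca cells, was at 26.5, 20.4, 5.22 and 4.18 (log2 fold change -2.32, SE 0.44, edgeR adjusted p = 0.198), the lowest p of the theca list.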

How the data were processed

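Poly(A)-enriched RNA of 4 ovary samples was sequenced, and 1 table was used. Its expected counts per gene were deposited unscaled, per the file headers; its FPKM were made by the authors, per the file headers. RSEM, HISAT2, fastp 0.18.0, StringTie 1.3.1, edgeR 3.32.0, Bowtie2 2.2.8 and DESeq2 appear, without roles, in the submitters' processing notes; genome build and strand use were not given in the sources used here. On RefSeq (Sscrofa11.1) WT1, GATA6 and CDH2 each overlap another gene, so their reads may be shared. Columns named for controls were taken as the WT samples of that number.

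Here counts were rounded, filtered with edgeR's filterByExpr (8372 genes removed), scaled by TMM and tested with edgeR 4.0.16 (robust quasi-likelihood, 2 residual degrees of freedom; R 4.3.3, limma 3.58.1, DESeq2 1.42.0), with Benjamini-Hochberg adjustment over all genes tested. The SE is the absolute log2 fold change over the square root of F. Scripts were tested on simulated data. P-values measure sample-to-sample spread only, and that spread may be technical. Symbols came from the table (15153 rows), a gene name table (664) or RefSeq (2222).

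Members and the 19 lists (259 entries, 244 matched) were chosen with earlier results of these data known. The rule named all members and, per list, up to 4 genes past the threshold or of highest mean CPM; genes named beyond it were picked with their values in view. Some list genes are not reported here. The 14 alternatives are 3 other scalings, 2 filters, DESeq2, limma-voom, limma-trend on log2(FPKM + 1) and log2(FPKM + 0.1), a replicate block, and each library left out.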

Additional observations from a re-analysis of the deposited data

How the results depend on the processing

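The calls over all genes, 4 higher and 0 lower, depended strongly on the tool and the scaling. Higher and lower calls were 7 and 4 with upper-quartile factors, 73 and 478 with library totals alone, 84 and 168 with no filter, 100 and 205 with DESeq2, 90 and 374 with limma-trend on log2(FPKM + 1), 89 and 398 with log2(FPKM + 0.1), and 1 and 0 with limma-voom. With the replicate block they were 11 and 12, and no call of the 10 genes changed. Same-numbered libraries shared only a number (correlation of their deviations -0.10). Leaving out 1 library gave 0 to 258 higher and 0 to 423 lower calls, the highest without WT replicate 2; such a fit takes the spread of the lone library from the other genotype.

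Upper-quartile factors moved the median of all genes to -0.11. WT1 and SERPINE2 kept their direction under all 14 alternatives. The log2 fold change of GATA6 reversed to -0.14 with library totals alone, -0.0664 with log2(FPKM + 1) and -0.0664 with log2(FPKM + 0.1), and that of CDH2 to -0.017, -0.018 and -0.019. GJA1, near 0, turned to 2.85e-04 (RLE factors), 0.0107 (no filter), 2.94e-04 (DESeq2), 0.00159 (limma-voom) and 0.00394 (replicate block). Leaving out 1 library gave -1.44 to 0.38 for FOXL2, -0.41 to 0.23 for GATA4, -0.93 to 0.34 for GATM, -0.17 to 0.13 for GJA1, -1.68 to 0.51 for INSL3 and -0.89 to 0.16 for TCF21. The cause was not tested. Each of the 10 genes had 43 counts or more in every library.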
